A study of Mus musculus with 6 samples.

Results

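The 10 secreted Wnt antagonists Sfrp1, Sfrp2, Sfrp4, Sfrp5, Frzb, Wif1, Dkk1, Dkk2, Dkk3 and Notum were taken by gene name from a table of 25700 genes measured by RNA sequencing in the mouse incisor. All 10 were present in the table and all 10 passed the filter on low counts. The RNA came from the proximal end of the incisor, the end that keeps the stem cells of this continuously growing tooth, and is labelled as dental mesenchyme. The conditional knockout (cKO) mice were Gli1-CreERT2;Runx2fl/fl, in which tamoxifen activates Cre in cells that express Gli1 and removes the floxed part of Runx2. The control mice were Runx2fl/fl and carried no Cre. Both groups were C57BL/6 mice of 5 weeks, with 3 mice each, and tissue was taken 1 week after induction at 1 month of age with tamoxifen on 3 consecutive days. Because the controls have no Cre, Runx2 loss and any action of the Gli1-CreERT2 allele cannot be told apart. Tamoxifen (20 mg/ml in corn oil, 1.5 mg per 10 g of body weight) is described for the mice without distinction of genotype.

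Wnt proteins are lipid-modified ligands that bind Frizzled receptors and the co-receptors LRP5 and LRP6, and so stabilise beta-catenin. Secreted antagonists act on this system from outside the cell. Secreted Frizzled-related proteins (SFRPs, with Frzb) and Wif1 bind Wnt ligands, Dickkopf proteins bind LRP5 and LRP6, and Notum removes the lipid that Wnts need for receptor binding. In teeth and bone, Wnt signalling acts on mesenchymal progenitors and on the cells that make dentin and bone.

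Libraries held between 53525185 and 66694240 estimated counts, and the lowest count of any member was 435, for Dkk1 in cKO 1. Runx2, the targeted transcription factor, measured 62.6, 54.0 and 49.0 CPM (counts-per-million) in cKO 1 to 3 and 79.7, 77.7 and 81.2 CPM in control 1 to 3. Every cKO mouse lay below every control, and the difference did not pass the test over all genes (log2 fold change -0.53, SE 0.089, edgeR adjusted p = 0.0714). Gli1, the hedgehog-responsive gene whose locus drives the Cre, measured 75.0, 77.9 and 70.6 CPM in cKO 1 to 3 and 159, 89.7 and 207 CPM in control 1 to 3 (log2 fold change -1.03, SE 0.27, edgeR adjusted p = 0.131). Mesenchyme markers were present in every library, with Prrx1 at 94.2 to 155 CPM and Pdgfra at 257 to 368 CPM, while Barx1 was low at 0.567 to 1.89 CPM. Enamel-forming epithelium was also in the tissue, since 4 secretory ameloblast markers summed to between 22200 and 46700 CPM in the cKO mice and between 60000 and 79500 CPM in the controls. Libraries stood apart in 4 ways. A sum of 6 late enamel genes was 2630, 1450 and 1120 CPM in cKO 1 to 3 and 118, 1800 and 102 CPM in control 1 to 3, so control 2 resembled the cKO mice. Neutrophil and marrow genes summed to 40.7 and 18.8 CPM in cKO 1 and cKO 2 and to between 1.28 and 2.53 CPM in the other 4 libraries. Skeletal muscle genes summed to 336 CPM in control 1, against 12.1 to 15.6 CPM elsewhere. Control 1 was also the 1 male, with 0.596 CPM of Xist against 2870 to 3390 CPM in the other 5 mice.

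Across the 10 antagonists, the largest log2 fold changes between genotypes were those of 2 SFRP genes: all cKO mice lay above all controls for Sfrp4 and below all controls for Sfrp2. For Notum and Wif1, too, all cKO mice lay below all controls, and the difference of Notum, though smaller than that of Sfrp2, had the lower p. The groups of the other 6 members overlapped. By edgeR's quasi-likelihood test none of the 10 passed an adjusted p of 0.05, a threshold that 5 of 19264 tested genes (0.0260%) passed. At an unadjusted p under 0.05 there were 5 members (Sfrp2, Sfrp4, Wif1, Dkk1 and Notum), against 17.3% of all genes tested. DESeq2, a second count test, called 4 members, with Sfrp4 higher and Sfrp2, Wif1 and Notum lower, against 6.89% of all genes tested (3.62% higher and 3.27% lower). limma-voom called none of the 10, against 0.0208% of all genes. Groups without overlap occurred in 4 of 10 members and in 23.1% of all tested genes. For 1 of them the cKO mice were above, as for 11.1% of all genes, and for 3 below, as for 12.0%. The median log2 fold change of the members was -0.011, with 5 above and 5 below 0, beside a median of 4.8e-05 over all genes. In bulk tissue, fewer cells of a type and less RNA per cell cannot be told apart.

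**Figure D1:**
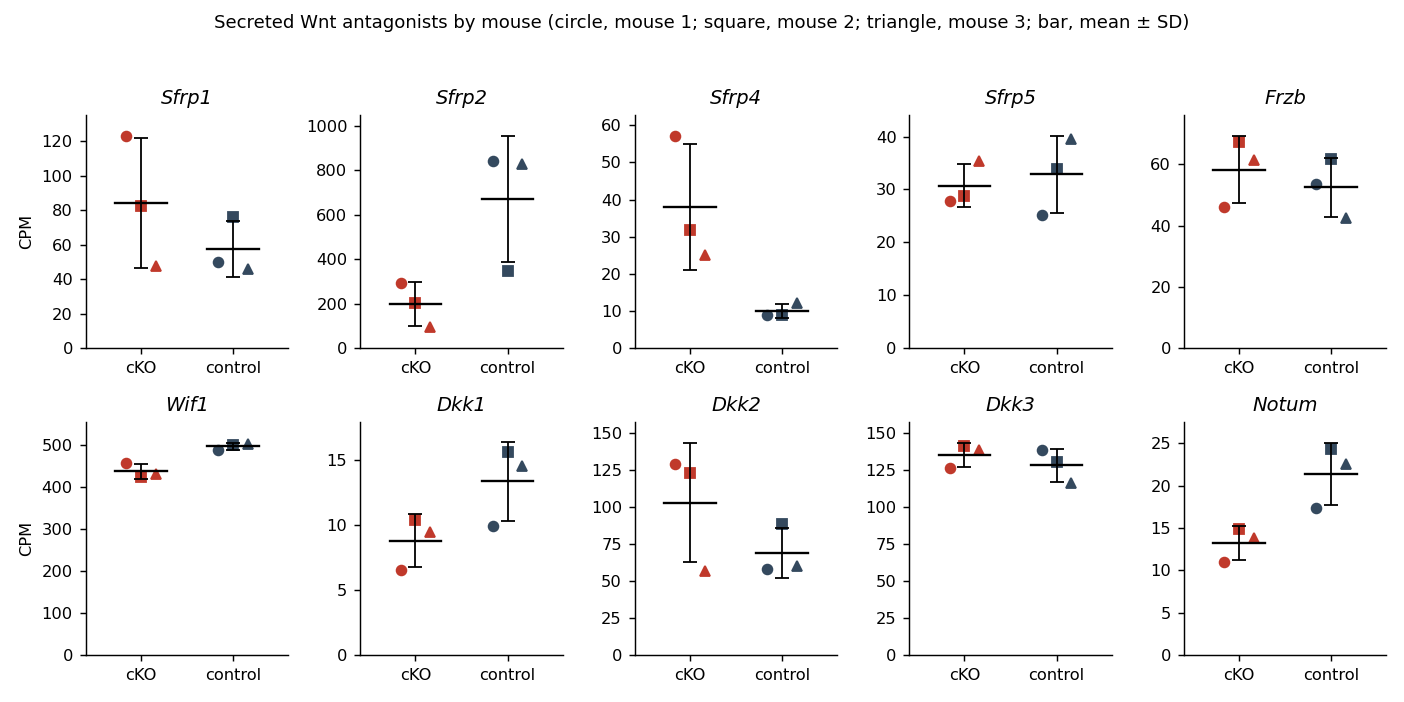
CPM of the 10 secreted Wnt antagonists in each mouse, with cKO mice left of control mice, symbols for mice 1 to 3 and bars for mean ± SD (n = 3 each). Sfrp4 separates the groups upward (25.0 to 57.1 CPM in cKO mice, 8.79 to 12.1 CPM in controls), and Sfrp2, Wif1 and Notum separate them downward.

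Sfrp4 (chromosome 13, 19623104 to 19632994, plus strand, in mm10 as for all genes here) encodes an SFRP of the same branch as Frzb, known for a role in cortical bone. It measured 57.1, 31.7 and 25.0 CPM in cKO 1 to 3 and 8.79, 8.99 and 12.1 CPM in control 1 to 3. All cKO mice lay above all controls, and they differed 2.29-fold among themselves, against 1.38-fold among the controls. Sfrp4 averaged 37.9 ± 17.0 CPM in cKO mice and 9.96 ± 1.86 CPM in control mice (SD, n = 3 each), and the cKO level was 3.81 times that of control (log2 fold change 1.93, SE 0.31). It did not pass with edgeR (adjusted p = 0.0669), and over 12 alternatives with edgeR or limma-voom the adjusted p ran from 0.0649 to 0.673. It passed with DESeq2 (adjusted p = 7.60e-09) and in each of the 6 DESeq2 fits that left out 1 library, where the highest adjusted p was 0.00758. With the late enamel genes as a covariate the log2 fold change stayed at 1.91 (SE 0.53, edgeR adjusted p = 0.673), and DESeq2 still called it (1.93, adjusted p = 0.00397). Of all tested genes 0.618% had a larger log2 fold change in either direction. Control 2, whose late enamel genes were high, had an Sfrp4 level between those of the other controls (8.99 CPM). Neutrophil genes were high in cKO 1 and cKO 2. In cKO 3 they summed to 2.13 CPM, with Sfrp4 at 25.0 CPM. Late enamel genes were higher in all cKO mice than in control 1 and control 3, so the covariate and genotype were only partly separable. The covariate held no neutrophil gene. The part of late enamel cells and neutrophils in the Sfrp4 result was not tested.

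Sfrp2 (chromosome 3, 83766321 to 83774316, plus strand) encodes an SFRP of the Sfrp1 and Sfrp5 branch that is abundant in mesenchymal tissues. It measured 294, 203 and 94.6 CPM in cKO 1 to 3 and 842, 345 and 827 CPM in control 1 to 3. Control 1 and control 3 stood far above all other mice, while control 2 lay nearer to cKO 1 than to the other controls. Sfrp2 averaged 197 ± 99.8 CPM in cKO mice and 671 ± 283 CPM in control mice (SD, n = 3 each), a cKO level 0.294 times that of control (log2 fold change -1.77, SE 0.47). This did not pass with edgeR (adjusted p = 0.138) and passed with DESeq2 (adjusted p = 0.0242). The DESeq2 call was kept in 2 of the 6 fits that left out 1 library, those without cKO 1 (adjusted p = 0.00947) and without control 2 (0.00483). It was lost without cKO 2, cKO 3, control 1 or control 3 (0.148, 0.0772, 0.192 and 0.266). Among the controls, control 2 was lowest in Sfrp2 and highest in late enamel genes, while control 1 was above control 3 in both. Among the cKO mice Sfrp2 and the late enamel genes stood in the same order, both highest in cKO 1 and lowest in cKO 3. With these genes as a covariate the log2 fold change was -1.01 (SE 0.63, edgeR adjusted p = 0.845; DESeq2 adjusted p = 1.000). The covariate and genotype were only partly separable here too, and the part of late enamel cells in the Sfrp2 result was not tested. The Sfrp2 exons share 16.1% of their bases with the antisense gene Gm26771, which itself had at most 0.726 CPM in any library.

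Sfrp1 (chromosome 8, 23411502 to 23449632, plus strand), a widely expressed SFRP that limits bone formation, measured 123, 82.3 and 47.8 CPM in cKO 1 to 3 and 50.1, 75.8 and 46.1 CPM in control 1 to 3. cKO 1 was the highest mouse, and cKO 3 lay among the controls. Its means were 84.3 ± 37.6 CPM in cKO mice and 57.3 ± 16.1 CPM in control mice (SD, n = 3 each), a log2 fold change of 0.56 with an SE of 0.34 (edgeR adjusted p = 0.453). DESeq2 called Sfrp1 only without cKO 3 (log2 fold change 0.84, adjusted p = 0.0230), and with the late enamel covariate the log2 fold change was 0.0072 (SE 0.40, edgeR adjusted p = 0.999). Sfrp5 (chromosome 19, 42197971 to 42202252, minus strand), an SFRP much studied in adipose tissue, measured 27.9, 28.8 and 35.4 CPM in cKO 1 to 3 and 25.2, 33.8 and 39.5 CPM in control 1 to 3. The Sfrp5 groups overlapped, and the log2 fold change of -0.098 (SE 0.17, edgeR adjusted p = 0.813) was above 0 without control 3 (0.055). Frzb (chromosome 2, 80411970 to 80447625, minus strand), an SFRP first described in cartilage, measured 46.0, 67.3 and 61.3 CPM in cKO 1 to 3 and 53.5, 61.6 and 42.3 CPM in control 1 to 3. Frzb had a log2 fold change of 0.15 (SE 0.17, edgeR adjusted p = 0.714) and was below 0 with the late enamel covariate (-0.015).

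**Figure D2:**
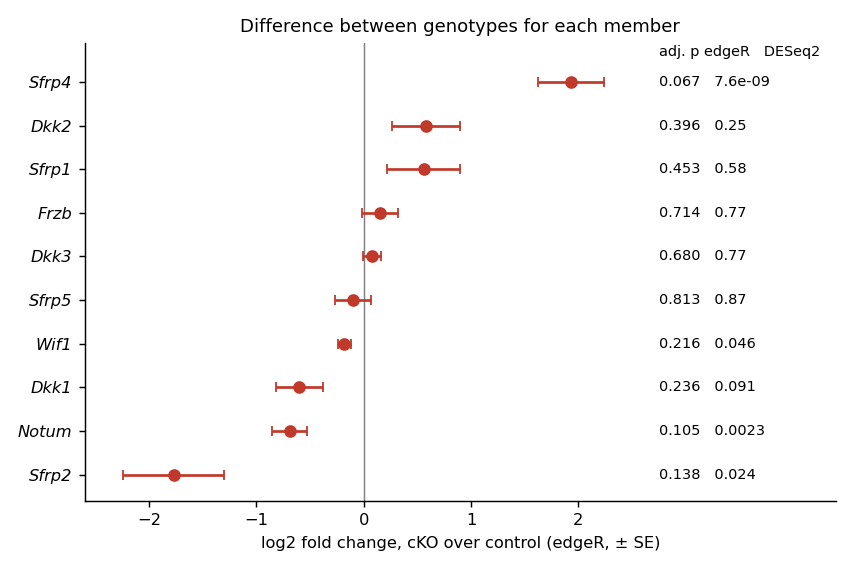
Log2 fold change of cKO over control for each member, as point and SE bar from edgeR, with adjusted p-values of edgeR and DESeq2 at the right. Sfrp4 (1.93) and Sfrp2 (-1.77) lie at the ends, and no edgeR adjusted p is under 0.05.

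Wif1 (chromosome 10, 121033960 to 121100650, plus strand), which binds Wnt ligands through its own WIF domain, varied least within groups. It measured 457, 424 and 429 CPM in cKO 1 to 3 and 487, 499 and 502 CPM in control 1 to 3. All cKO mice lay below all controls, yet the difference was small, at 437 ± 17.6 CPM in cKO mice and 496 ± 8.06 CPM in control mice (SD, n = 3 each). The cKO level was 0.881 times that of control (log2 fold change -0.18, SE 0.064), which did not pass with edgeR (adjusted p = 0.216) and passed narrowly with DESeq2 (adjusted p = 0.0460). Among the DESeq2 fits that left out 1 library Wif1 was called only without cKO 1 (adjusted p = 0.00498), with adjusted p up to 0.287 in the other 5. With the late enamel covariate DESeq2 did not call it (log2 fold change -0.20, adjusted p = 0.632).

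The Dickkopf members gave 3 different patterns. Dkk1 (chromosome 19, 30545863 to 30549665, minus strand), the classical LRP5 and LRP6 inhibitor, measured 6.49, 10.4 and 9.48 CPM in cKO 1 to 3 and 9.92, 15.6 and 14.5 CPM in control 1 to 3. The groups overlapped only in that cKO 2 lay above control 1. Dkk1 averaged 8.79 ± 2.04 CPM in cKO mice and 13.3 ± 3.00 CPM in control mice (SD, n = 3 each), with a log2 fold change of -0.60 (SE 0.22, edgeR adjusted p = 0.236; DESeq2 adjusted p = 0.0913). Without control 1 its log2 fold change was -0.77 and DESeq2 called it (adjusted p = 0.0115). Dkk2 (chromosome 3, 132085292 to 132180304, plus strand), which also binds LRP5 and LRP6 but can act as agonist or antagonist, measured 129, 123 and 56.6 CPM in cKO 1 to 3 and 58.0, 88.2 and 59.8 CPM in control 1 to 3. cKO 1 and cKO 2 were above every control, and cKO 3 was below every control. Dkk2 had a log2 fold change of 0.58 (SE 0.32, edgeR adjusted p = 0.396; DESeq2 adjusted p = 0.247), and DESeq2 called it only without cKO 3 (0.88, adjusted p = 5.55e-04). With the late enamel covariate it was at 0.16 (SE 0.40, edgeR adjusted p = 0.992). Dkk3 (chromosome 7, 112116017 to 112159057, minus strand), a divergent member whose part in Wnt signalling is less settled, measured 126, 141 and 138 CPM in cKO 1 to 3 and 138, 130 and 116 CPM in control 1 to 3. The Dkk3 groups overlapped, with a log2 fold change of 0.076 (SE 0.081, edgeR adjusted p = 0.680).

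Notum (chromosome 11, 120653788 to 120661175, minus strand), the Wnt deacylase and in many tissues a target of Wnt signalling itself, measured 11.0, 14.9 and 13.8 CPM in cKO 1 to 3 and 17.3, 24.3 and 22.6 CPM in control 1 to 3. All cKO mice lay below all controls. Notum averaged 13.3 ± 2.0 CPM in cKO mice and 21.4 ± 3.65 CPM in control mice (SD, n = 3 each), a cKO level 0.619 times that of control (log2 fold change -0.69, SE 0.16). It did not pass with edgeR (adjusted p = 0.105) and passed with DESeq2 (adjusted p = 0.00228). Notum was called in each of the 6 DESeq2 fits that left out 1 library, with adjusted p up to 0.0431, and not with the late enamel covariate (log2 fold change -0.78, DESeq2 adjusted p = 0.155). The exons of Notum share 38.1% of their bases with the antisense genes Notumos and Myadml2os, and strand is not stated for these counts. Notumos itself had 0.567 to 0.928 CPM in cKO mice and 1.56 to 1.96 CPM in control mice, so it was lower in the same mice as Notum.

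Promoter sequence was searched for the cores of RUNX factors, because Runx2 was targeted, of TCF/LEF factors, which carry the Wnt signal, and of GLI factors. RefSeq promoters on GRCm38.p6, from 250 bases before to 50 after a start site, were matched for 6 of the 10 members (Frzb, Sfrp2, Dkk2, Wif1, Dkk1 and Sfrp5). The RUNX core TGTGGT, on either strand, lay in 2 of these 6 (Dkk1 and Sfrp5) and in 16.8% of all 32851 promoters of the table. The TCF/LEF core CTTTGA lay in 2 of 6 (Dkk1 and Frzb) against 16.0% of all promoters. Its matches began at -117 and -174 (Dkk1) and at -95 (Frzb) from the RefSeq start. By the starts in the deposited table they lay past the start or, for that at -174, across it. The Dkk1 stretch below therefore ends inside the match at -174. The GLI core ACCACCC lay in 0 of 6 against 4.61% of all. No match overlapped another. A match to letters is a description and not a site of binding. The stretches below end before the start sites of both RefSeq and the deposited table, run 5′ to 3′ on the gene's strand, and show the RUNX core in capitals. They set both RUNX-core members, Dkk1 on chr19:30549666-30549746 (minus strand) and Sfrp5 on chr19:42202253-42202502 (minus strand), beside Sfrp2 on chr3:83766071-83766320 (plus strand), the member with the lowest log2 fold change.
Dkk1: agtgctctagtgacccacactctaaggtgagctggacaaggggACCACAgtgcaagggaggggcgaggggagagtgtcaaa
Sfrp5: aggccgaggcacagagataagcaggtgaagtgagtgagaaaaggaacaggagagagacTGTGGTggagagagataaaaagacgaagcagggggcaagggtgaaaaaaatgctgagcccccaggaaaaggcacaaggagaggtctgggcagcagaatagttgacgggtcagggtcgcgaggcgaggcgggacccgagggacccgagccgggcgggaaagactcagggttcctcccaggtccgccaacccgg
Sfrp2: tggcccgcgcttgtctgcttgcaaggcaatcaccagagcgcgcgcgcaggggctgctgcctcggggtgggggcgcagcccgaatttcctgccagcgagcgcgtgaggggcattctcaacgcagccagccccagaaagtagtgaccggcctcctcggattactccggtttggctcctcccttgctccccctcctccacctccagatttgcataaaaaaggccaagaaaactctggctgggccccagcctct
The RUNX core occurs as its reverse complement ACCACA in Dkk1 and as TGTGGT in Sfrp5. Of these 2 members Dkk1 had a log2 fold change of -0.60 and Sfrp5 one of -0.098, while Sfrp2, at -1.77, held none of the 3 cores in its window.

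Levels of different genes were compared per length, as RPKM over the merged exons of the GENCODE M21 annotation. Sfrp2 and Wif1 were the most abundant antagonists and Sfrp4 and Dkk1 among the least. In cKO mice Wif1 led with 180 ± 7.25 RPKM, followed by Sfrp2 with 91.6 ± 46.4 and Dkk3 with 40.2 ± 2.40 RPKM (SD, n = 3). In control mice Sfrp2 led with 312 ± 131 RPKM, followed by Wif1 with 204 ± 3.32 and Dkk3 with 38.1 ± 3.42 RPKM (SD, n = 3). In each cKO mouse Wif1 was above Sfrp2. In controls Sfrp2 was above Wif1 in control 1 and control 3 (391 and 384 RPKM of Sfrp2), while in control 2 it was below (160 RPKM of Sfrp2, 205 RPKM of Wif1). Dkk2, Frzb, Sfrp5 and Sfrp1 followed, with means between 16.2 and 27.8 RPKM in cKO mice and between 13.1 and 18.5 RPKM in control mice, and among these 4 neighbours in the order differed by less than the larger of their SDs in both genotypes. At the low end, Sfrp4 averaged 9.08 ± 4.06 RPKM in cKO mice, above Notum (5.50 ± 0.830) and Dkk1 (3.62 ± 0.842). In control mice Sfrp4 was last with 2.38 ± 0.446 RPKM, below Dkk1 (5.50 ± 1.24) and Notum (8.89 ± 1.51). The steps between these 3 exceeded the SDs except that from Sfrp4 to Notum in cKO mice.

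The summed level of the 10 members was 475, 417 and 341 RPKM in cKO 1 to 3 and 703, 501 and 704 RPKM in control 1 to 3. Without Sfrp2 the other 9 members summed to 338, 323 and 297 RPKM in cKO 1 to 3 and to 312, 341 and 320 RPKM in control 1 to 3, values that overlapped between the genotypes. Sfrp2 alone made up 28.7%, 22.6% and 12.9% of the sum in cKO 1 to 3 and 55.6%, 32.0% and 54.5% in control 1 to 3. The 3 Dickkopf genes made up 15.8%, 19.1% and 17.6% in cKO 1 to 3 and 8.66%, 13.8% and 8.02% in control 1 to 3. As shares of 1 sum, these percentages move against each other by construction.

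**Figure D3:**
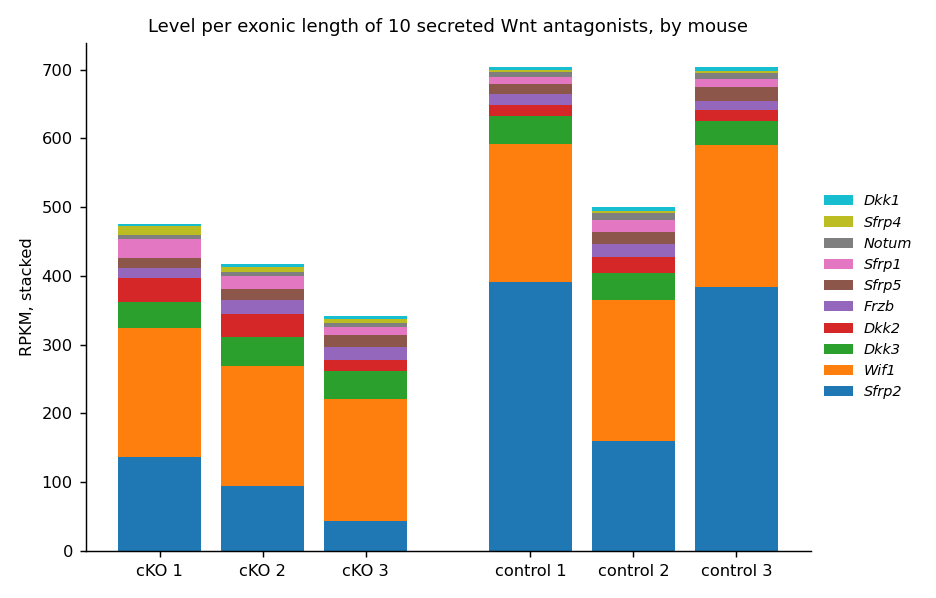
Stacked RPKM of the 10 members in each mouse, cKO mice at the left and control mice at the right, over merged exon length. The Sfrp2 segment spans 43.9 to 137 RPKM in cKO mice and 160 to 391 RPKM in control mice, and the remainder is of similar height in all 6 mice (297 to 341 RPKM).

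Some pairs of members had a ratio of counts within libraries that overlapped between the genotypes, and such a ratio does not depend on the scaling of depth. Sfrp1 and Dkk2, encoding a Wnt-binding and an LRP-binding protein, stood at 0.952, 0.668 and 0.846 Sfrp1 counts per Dkk2 count in cKO 1 to 3 and at 0.863, 0.859 and 0.771 in control 1 to 3. Each of the 2 genes ranged more than this among the cKO mice, 2.57-fold for Sfrp1 and 2.28-fold for Dkk2. Notum and Dkk1 stood at 1.70, 1.43 and 1.46 Notum counts per Dkk1 count in cKO 1 to 3 and at 1.74, 1.56 and 1.56 in control 1 to 3. Sfrp2 and Sfrp4, by contrast, stood at 5.14, 6.41 and 3.79 Sfrp2 counts per Sfrp4 count in cKO 1 to 3 and at 95.8, 38.3 and 68.3 in control 1 to 3. Control 2 had the lowest of the control ratios and was, in fold terms, nearer to the other controls than to any cKO mouse. Dkk2 and Dkk1 stood at 19.9, 11.8 and 5.97 Dkk2 counts per Dkk1 count in cKO 1 to 3 and at 5.84, 5.67 and 4.12 in control 1 to 3, with cKO 3 next to the controls. These ratios were chosen after the members' values were seen and are given without a test.

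**Figure D4:**
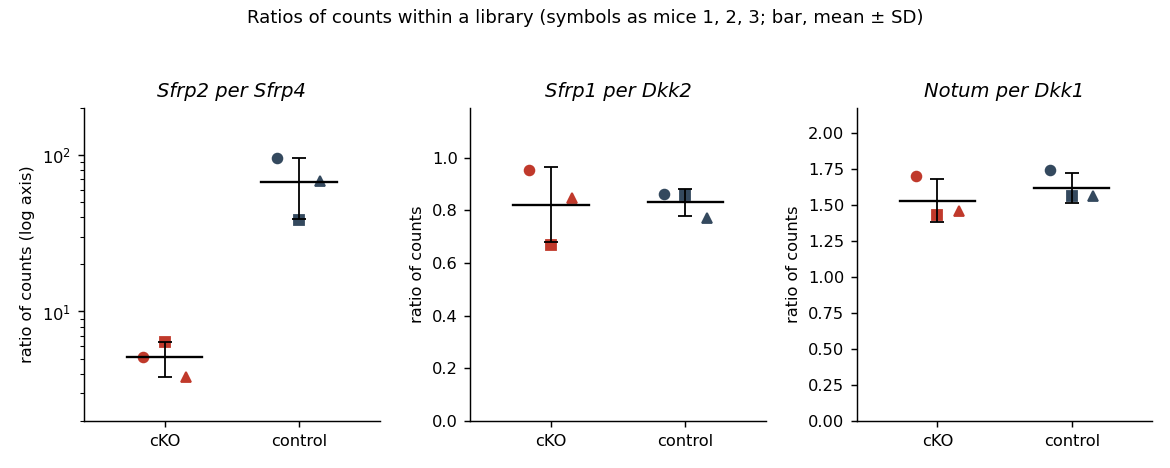
Ratio of counts between members within each library, cKO left of control, with mean ± SD (n = 3 each); the axis for Sfrp2 per Sfrp4 is logarithmic. The Sfrp2 to Sfrp4 ratio is 3.79 to 6.41 in cKO mice and 38.3 to 95.8 in control mice, while the Sfrp1 to Dkk2 and Notum to Dkk1 ratios overlap.

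Members also differed in which mouse was high. Among the cKO mice, Sfrp1, Sfrp2, Sfrp4 and Dkk2 were each highest in cKO 1 and lowest in cKO 3, the order in which late enamel genes (2630, 1450 and 1120 CPM) and neutrophil genes (40.7, 18.8 and 2.13 CPM) also stood. Dkk1, Notum, Frzb and Dkk3 were lowest in cKO 1 and highest in cKO 2, and in Dkk1 and Notum the controls too had the same order, lowest in control 1 and highest in control 2. Summed markers of dental mesenchyme, odontoblasts and macrophages summed higher in all cKO mice than in any control (22800 to 40200 against 11900 to 20100 CPM, 6630 to 12900 against 3020 to 5260 CPM, and 354 to 416 against 225 to 282 CPM). In these sums 6 of 9 mesenchyme, 3 of 4 odontoblast and 5 of 5 macrophage genes separated the groups. Of all tested genes, 11.1% had all cKO mice above all controls and 12.0% had them below. Col1a1 made up most of the mesenchyme sum (16800 to 31800 against 8130 to 14600 CPM). Dspp made up most of the odontoblast sum (5780 to 11700 against 2630 to 4520 CPM). Of the other mesenchyme markers, Prrx1, Msx1, Msx2, Pax9 and Col1a2 separated the groups, while Pdgfra, Twist1 and Barx1 overlapped. The sums also lay higher in all cKO mice for osteoblasts (2540 to 4750 against 1080 to 2120 CPM), periodontal ligament (618 to 788 against 494 to 529 CPM) and endothelium (402 to 424 against 333 to 353 CPM). In these, 3 of 5, 4 of 5 and 3 of 4 genes separated the groups. Bglap made up most of the osteoblast sum, and Phex was counted for odontoblasts as well. Of the osteoblast genes Sp7 (119 to 127 against 110 to 144 CPM) and Sost overlapped. The sum for pericytes and smooth muscle lay lower in all cKO mice (681 to 799 against 800 to 1010 CPM). The 4 of 5 genes that separated the groups were Acta2, Cnn1, Myh11 and Tagln. The pericyte marker Rgs5 made up most of this sum and overlapped (534 to 654 CPM in cKO mice, 568 to 624 CPM in controls). All 4 secretory ameloblast markers were lower in all cKO mice than in any control. The late enamel covariate was only partly separable from genotype, and the part of cell composition in the values of the antagonists was not tested.

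**Figure D5:**
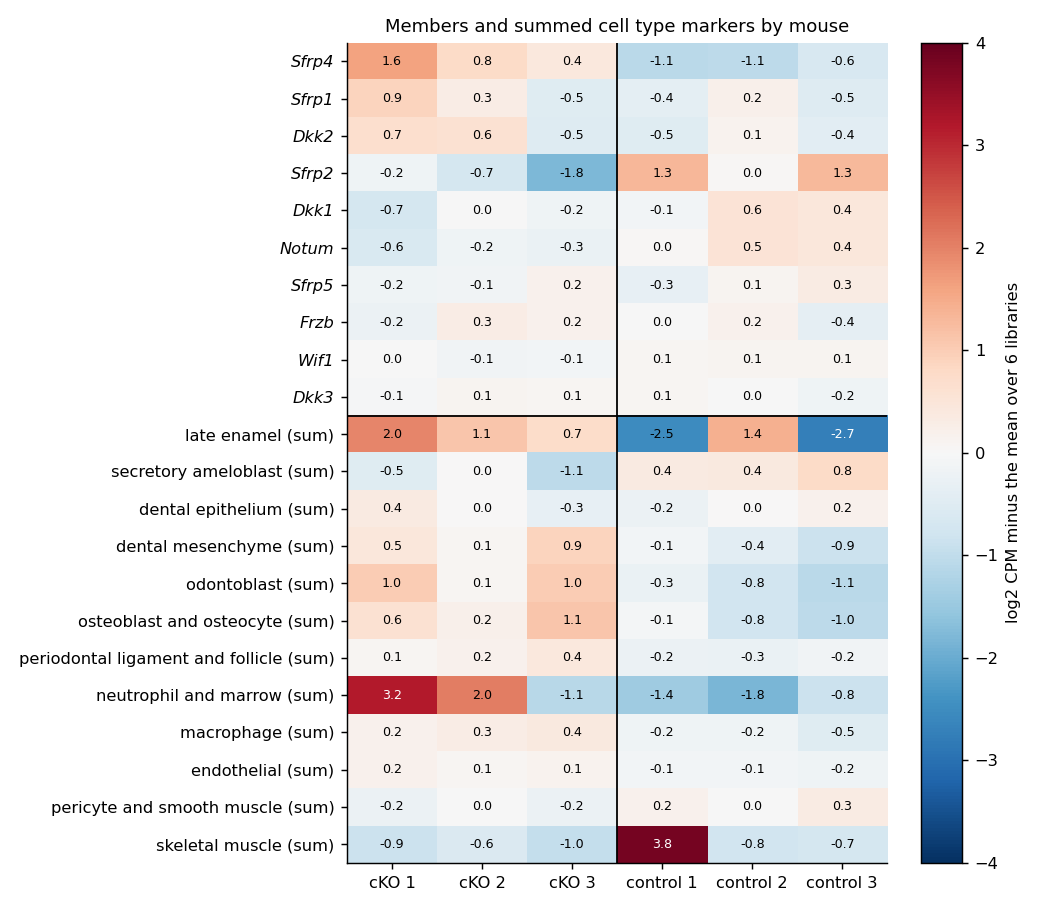
Log2 CPM of each member, and of the summed CPM of each marker list, minus its mean over the 6 libraries, with cKO mice left of control mice. Sfrp4 is positive in the 3 cKO mice and negative in the 3 controls, and Sfrp2 and the late enamel genes set control 2 apart from control 1 and control 3.

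The genes whose profile over the 6 libraries was most like that of a member were found among 10566 genes with a mean of at least 10 CPM over the 6 libraries, by the root-mean-square difference of log2 CPM after centring each gene. Among the 45 pairs of members the closest were Dkk1 with Notum (0.10), Sfrp1 with Dkk2 (0.16) and Frzb with Dkk3 (0.16). For Dkk1, Notum, Sfrp1 and Dkk2 the partner was also the closest of all genes, while Frzb and Dkk3 were closer to genes outside the members. After each other, Dkk1 and Notum were closest to Smpd3, a sphingomyelinase of bone and dentin (0.13 and 0.15). Sfrp1 was next closest to the sterol transporter Abcg5 (0.17) and Dkk2 to the proteoglycan Ogn (0.18). Sfrp2 was closest to the guidance protein Ntn1 (0.31) and the retinoic acid enzyme Aldh1a2 (0.32). Sfrp4 was closest to the activin antagonist Fst (0.40) and the IGF-binding protein protease Pappa2 (0.44). Ntn1 measured 12.8, 11.8 and 8.12 CPM in cKO 1 to 3 and 45.9, 24.3 and 49.5 CPM in control 1 to 3. Fst measured 97.0, 31.0 and 37.0 CPM in cKO 1 to 3 and 15.3, 22.5 and 19.7 CPM in control 1 to 3. Wif1, Dkk3, Frzb and Sfrp5, which varied less over the 6 libraries, had closest genes at 0.016 (Cep192), 0.021 (Med16), 0.041 (Nudt16) and 0.076 (Thy1). Likeness over 6 libraries is a description of these libraries.

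The rest of the Wnt pathway was read from 7 lists with 62 genes, of which 53 were tested. By edgeR 0 of the 53 passed, against 0.0260% of all genes tested, and 23 had an unadjusted p under 0.05, against 17.3% of all genes. DESeq2 called 12 of the 53, against 6.89% of all genes, of which 5 were higher and 7 lower in cKO mice. The 12 were Wnt3a, Wnt5a, Wnt11, Fzd3, Fzd4, Fzd8, Ror1, Kremen1, Trabd2b, Draxin, Tcf7 and Myc. Among those described below, the DESeq2 adjusted p ran from 8.65e-07 (Draxin) to 0.0221 (Fzd4), with Wnt3a at 2.68e-06. Groups did not overlap for 19 of the 53, against 23.1% of all genes. Among 13 tested Wnt ligands 5 were above and 8 below 0 (median log2 fold change -0.18). Wnt3a, a canonical ligand, averaged 17.7 ± 3.03 CPM in cKO mice and 38.9 ± 9.49 CPM in control mice (SD, n = 3 each, as for the genes that follow), with a log2 fold change of -1.14 (SE 0.19, edgeR adjusted p = 0.0728). Wnt11, a noncanonical ligand, averaged 11.5 ± 1.89 CPM in cKO mice and 21.6 ± 4.49 CPM in control mice (-0.90, SE 0.18, edgeR adjusted p = 0.0878). Of the 15 receptors and co-receptors 8 were above and 7 below 0 (median 0.034), with Ror1, a Wnt5a receptor, at -0.45 and Fzd4 at 0.28 (edgeR adjusted p = 0.0714 and 0.115). Kremen1, which cooperates with Dickkopf proteins at LRP6, averaged 107 ± 7.92 CPM in cKO mice and 138 ± 12.7 CPM in control mice (-0.37, edgeR adjusted p = 0.108). The 6 glypicans, heparan sulfate proteoglycans that bind Wnts, split evenly around 0 (median -0.045), with Gpc2 at -0.28 and Gpc4 at -0.14 (edgeR adjusted p = 0.211 and 0.230).

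Other extracellular inhibitors, outside the 10, went both ways as well. Draxin, a guidance protein that antagonises Wnt signalling, averaged 4.19 ± 0.847 CPM in cKO mice and 1.26 ± 0.452 CPM in control mice (1.72 on the log2 scale, SE 0.28, edgeR adjusted p = 0.0672). Trabd2b, a Wnt-cleaving membrane protease, averaged 6.74 ± 0.226 CPM in cKO mice and 11.8 ± 3.26 CPM in control mice (-0.81, SE 0.20, edgeR adjusted p = 0.117). Without control 2 edgeR called both of these genes, and no member, among the 72 genes it then called. Of 11 Wnt target and feedback genes 3 were above and 8 below 0 (median -0.16). Tcf7, a transcription factor of the pathway, averaged 48.5 ± 4.08 CPM in cKO mice and 66.0 ± 1.02 CPM in control mice (-0.45, edgeR adjusted p = 0.0651), while Myc averaged 42.4 ± 2.45 CPM in cKO mice and 33.0 ± 0.753 CPM in control mice (0.36, edgeR adjusted p = 0.0695). 3 further genes of this list were singled out after their values were seen. Axin2, a widely used readout of Wnt signalling, averaged 35.0 ± 3.88 CPM in cKO mice and 39.1 ± 2.72 CPM in control mice (-0.16, SE 0.095, edgeR adjusted p = 0.441). Lef1, a transcription factor of the pathway, was at -0.097 (SE 0.11, edgeR adjusted p = 0.702). Lgr5, a receptor for R-spondins, averaged 0.232 ± 0.0837 CPM in cKO mice and 0.473 ± 0.162 CPM in control mice, with as few as 11 counts in a library (-1.0, SE 0.39, unadjusted p = 0.0351, edgeR adjusted p = 0.250). The Wnt-secretion genes Wls and Porcn had log2 fold changes of -0.072 and 0.037 (edgeR adjusted p = 0.752 and 0.829).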

How the data were processed

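RNA of 6 incisors was sequenced as single-end reads of 75 cycles. Per the submitters' processing notes STAR 2.6.1d, Partek and the build mm10 were used, with annotation and counting settings not stated. The deposited table holds estimated counts per gene, which the authors left unnormalized, with 45.6% to 48.0% of values whole within 1e-09. A second deposited table, of scaled values for the same libraries, was not used here. Columns belonging to no sample numbered 0.

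After rounding, filterByExpr (count of at least 10, total of at least 15) kept 19264 genes, and TMM gave the scaling. Genotypes were compared over all 6 libraries by the two-sided quasi-likelihood F-test of edgeR 4.0.16 (R 4.3.3), with no covariate and p-values adjusted by Benjamini-Hochberg across these genes. Each SE is the log2 fold change divided by the root of F. DESeq2 1.42.0 and limma 3.58.1 were alternatives, and DESeq2 left the adjusted p of 1523 genes as NA. CPM use TMM-scaled library sizes, and RPKM divide these by merged exon length in GENCODE M21, whose coordinates of the 10 members equal those deposited after reducing the end by 1. Replicates are separate mice, numbered in accession order; the labels mention 3 pairs of samples without naming them, which the tests ignore. No 2 libraries of a group were repeats of 1 sample (chi-square per degree of freedom 50.8 to 80.8).

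The members, lists and alternatives were chosen with earlier results of these data known. Named genes were the members, Runx2, Gli1, per pathway list the called genes or otherwise the 2 of lowest p, and the 2 closest profiles of each member. edgeR was also run on simulated counts of 18995 genes for this comparison. Counts were drawn for each gene on its own, with dispersions fitted to these libraries. Differences shared by many genes of a library were therefore absent from the simulation. There it found 86% of 100 genes given a log2 change of 1 and 98% of 100 given 2, with 15 false calls. Whether these percentages hold for the real libraries, which stood apart in late enamel, neutrophil and muscle genes and in sex, was not tested. They therefore do not say how often a real change of such a size would be called. In the real libraries edgeR called 5 of 19264 genes. Sfrp4 (log2 fold change 1.93, edgeR adjusted p = 0.0669) and Sfrp2 (-1.77, edgeR adjusted p = 0.138) were not among them.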

Additional observations from a re-analysis of the deposited data

How the results depend on the processing

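Over 20 alternatives each, the 10 members gave 200 values, of which 173 kept direction and side of the threshold, 23 newly passed it, each by DESeq2, and 4 reversed. The reversals were Frzb with the late enamel covariate (-0.015 with edgeR, -0.014 with DESeq2) and Sfrp5 without control 3 (0.055 and 0.056; over single libraries left out its range was -0.25 to 0.055). TMM, DESeq2 size factors and upper-quartile factors gave the same direction for every member with the median of all genes at 4.8e-05, 0.0027 and 0.0068 on the log2 scale. The count of members called was 0 with edgeR and limma-voom throughout, 4 with DESeq2, 1 with DESeq2 and the covariate, and 2 to 4 with DESeq2 leaving out 1 library. The pathway genes called were 12, 1 and 8 to 15 (11 without cKO 1) in these 3 settings, and 0 to 2 with edgeR leaving out 1 library. All genes called by edgeR, 5 with all libraries, were 0 to 72 leaving out 1 library and 0 with the covariate (1340 at unadjusted p under 0.05). The edgeR count was 0 without control 1, cKO 1 or cKO 2 (3103, 3278 and 2700 unadjusted; 1279, 1099 and 902 by DESeq2), 3 without control 3, 8 without cKO 3 and 72 without control 2. DESeq2 called 1327 genes, 132 with the covariate, and 718 to 1279 leaving out 1 library (743 without cKO 3, 1195 without control 2). Runx2 passed with DESeq2 (-0.52, adjusted p = 1.28e-04), and leaving out 1 library it ran from -0.63 to -0.44 (-0.51 without cKO 2 or control 3, -0.54 without control 2); with the covariate DESeq2 did not call it (-0.54, adjusted p = 0.115). The order of members per length changed at 7 places in cKO mice alone and at 4 in control mice alone. The cause of these changes was not tested. The DESeq2 fits without 1 library or with the covariate, and the order by longest transcript, were added after the data were seen. No paired analysis was possible because the labels speak of sample pairs but do not identify them, and replicate numbers here follow accession order; the unpaired tests ignore any such pairing. The lowest count was 435 among the members, 47 for Draxin and 11 for Lgr5, with relative counting error larger at lower counts.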
